A study of Mus musculus with 8 samples.

Results

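Expression of 10 CC chemokine and chemokine receptor genes was described in sorted mouse neutrophils from brain tumours and from culture. The genes were taken by name from the deposited count table, and all 10 were found among its 55450 genes. They comprise 8 ligands (Ccl2, Ccl3, Ccl4, Ccl5, Ccl6, Ccl9, Ccl17 and Ccl22) and 2 receptors (Ccr1 and Ccr2). The table holds 8 RNA-seq libraries of flow-sorted neutrophils, separated by the transferrin receptor CD71, in 4 groups of 2. The groups labelled culture CD71- and culture CD71+ are neutrophils made in vitro, with naive bone marrow as their source. The groups labelled tumour CD71- and tumour CD71+ were sorted from brain tumours, and the labels name SB28, a mouse glioma cell line, as their cell source. Mouse strain, genotype, age, sorting gates, any pooling of animals and the culture conditions are not given in the sources used here. Nor do the labels tell whether the 2 libraries of a group came from different animals or cultures. The spread that enters each p-value is therefore that between these libraries and may be technical.

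CC chemokines are small secreted proteins that draw leukocytes along a gradient by binding G protein-coupled receptors. Ccr1 is bound by Ccl3, Ccl5, Ccl6 and Ccl9, Ccr2 by Ccl2 and its relatives, and Ccr4 by Ccl17 and Ccl22. Neutrophils both answer to and secrete such ligands, and Ccr2 is best known as the receptor that inflammatory monocytes use to leave the bone marrow.

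The ligand genes lie in 3 places of the mouse genome (mm10, coordinates from GENCODE M21). On chromosome 11, Ccl2 (chr11:82035571-82037453, plus strand) lies apart from a cluster of Ccl5 (chr11:83525778-83530518), Ccl9 (chr11:83572919-83578636), Ccl6 (chr11:83587882-83593087) and Ccl3 (chr11:83647844-83649355), all on the minus strand, and Ccl4 (chr11:83662584-83664683, plus strand). No annotated gene separates Ccl9 from Ccl6, whose ends are 9245 bases apart, or Ccl3 from Ccl4, 13228 bases apart. Ccl22 (chr8:94745590-94751699) and Ccl17 (chr8:94810453-94812036) are on the plus strand of chromosome 8 with Cx3cl1, another chemokine gene, between them. Ccr1 (chr9:123962124-123968692, minus strand) and Ccr2 (chr9:124101950-124113557, plus strand) are on chromosome 9 with Ccr1l1 and Ccr3 between them. All 10 are protein-coding genes, and no exon of theirs overlapped an exon of another gene.

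Promoter windows were found in the RefSeq table (GRCm38.p6) for 7 of the 10 genes. The bases upstream of the start are shown for the neighbours Ccl6 and Ccl9, for the neighbours Ccl17 and Ccl22, and for Ccl3, because neighbours can be set side by side and Ccl3 is the most abundant ligand per length in the tumour. The Ccl22 sequence is cut at the gene start annotated in GENCODE, which lies upstream of the RefSeq start, and so has 156 bases. Capitals mark the ETS core ACTTCC, read on either strand.
Ccl6, chr11:83593088-83593337, minus strand: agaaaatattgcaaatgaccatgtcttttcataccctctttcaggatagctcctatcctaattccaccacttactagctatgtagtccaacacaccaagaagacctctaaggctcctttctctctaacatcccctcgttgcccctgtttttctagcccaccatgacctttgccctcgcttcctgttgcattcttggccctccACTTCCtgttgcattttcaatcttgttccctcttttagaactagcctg
Ccl9, chr11:83578637-83578886, minus strand: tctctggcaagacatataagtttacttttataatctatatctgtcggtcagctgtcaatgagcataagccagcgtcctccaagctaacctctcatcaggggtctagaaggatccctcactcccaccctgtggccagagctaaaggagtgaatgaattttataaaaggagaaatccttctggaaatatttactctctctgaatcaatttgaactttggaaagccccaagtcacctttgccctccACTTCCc
Ccl3, chr11:83649379-83649628, minus strand: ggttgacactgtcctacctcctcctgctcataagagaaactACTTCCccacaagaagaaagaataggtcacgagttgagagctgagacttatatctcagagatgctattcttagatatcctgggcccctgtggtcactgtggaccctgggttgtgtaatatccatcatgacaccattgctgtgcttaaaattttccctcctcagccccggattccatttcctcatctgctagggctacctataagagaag
Ccl22, chr8:94745434-94745589, plus strand: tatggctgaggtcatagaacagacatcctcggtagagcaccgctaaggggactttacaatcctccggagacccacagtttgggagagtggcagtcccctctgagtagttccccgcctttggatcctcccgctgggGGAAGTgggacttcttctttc
Ccl17, chr8:94810203-94810452, plus strand: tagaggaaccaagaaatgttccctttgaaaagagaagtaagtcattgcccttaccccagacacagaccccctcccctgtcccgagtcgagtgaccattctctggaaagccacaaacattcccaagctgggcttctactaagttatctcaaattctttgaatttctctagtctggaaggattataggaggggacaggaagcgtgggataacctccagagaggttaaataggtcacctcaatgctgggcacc
The core ACTTCC was present in the windows of Ccl3, Ccl6, Ccl9 and Ccl22, 4 of 7, against 19.7% of the 32851 promoter windows of the same 250 bases. It was not found in the window of Ccl17. Among the 21 pairs of the 7 windows, the longest run of identical bases was the 13 bases gccctccacttcc, shared by Ccl6 and Ccl9, which starts 55 bases before the Ccl6 start and 14 before the Ccl9 start. The Ccl9 window held the only match among the 7 to an NF-kB pattern (GGG, any 3 bases, then TTCC, in 4.65% of all windows), to an AP-1 pattern (TGANTCA, 6.75%) and to TATAAA (12.4%), whose 3 matches there included overlapping ones on opposite strands. A STAT pattern (TTC, any 4 bases, then GAA, 5.85%) was matched in the Ccl17 window alone, and the hypoxia response core ACGTG (16.6%) in none of the 7. The C/EBP pattern TTNCNNAA was matched in 4 of 7 windows, against 36.8% of all windows, and on Ccl9 it overlapped the NF-kB match. These matches are letters in a window, on both strands, and no binding was measured. For Ccl22 and Ccr2, the 250 bases searched run past the gene start annotated in GENCODE.

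Library depth was 9598959 to 22615813 counts, and expression is given as CPM, counts scaled to a common library size with TMM factors. A gene at 0 counts in a library could still have up to 3 counts there, which is 0.0915 to 0.419 CPM and covers counting error only. Reads carry no molecular identifiers. Mitochondrial transcripts took 0.202% to 12% of the counts and were highest in the culture CD71- libraries. All 15 mature neutrophil markers were detected in every group, with summed levels of 8797 to 9745 CPM in culture CD71-, 4049 to 5201 in culture CD71+, 30791 to 32297 in tumour CD71- and 14483 to 15091 in tumour CD71+. Hdc alone read 10668 and 9452 CPM in tumour CD71-, against 13.38 and 19.04 in culture CD71-. Ly6g was lower in tumour CD71-, at 9.35 and 14.1 CPM against 78.2 and 60.2. Of the 15 genes, 10 were called higher and 1 lower in tumour CD71- than in culture CD71-, where 30.3% and 36.8% of all genes tested were. The scaling on mature neutrophil genes used below was not tested without Hdc. Tfrc, the gene of the sort marker, read 187 and 145 CPM in tumour CD71- and 103 and 108 CPM in tumour CD71+, and was lower in the latter (log2 fold change -0.65, SE 0.19, adjusted p = 0.0134). In culture it read 131 and 94.3 CPM in CD71- and 116 and 115 in CD71+ and did not pass the test (adjusted p = 0.940). The RNA of the sort marker therefore did not follow the CD71 labels, and every direction between sort fractions below rests on the labels alone. In bulk libraries, fewer cells of a type and less RNA per cell cannot be told apart.

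The first question was how the sort fractions differ in the tumour. Of the 10 genes, 7 passed edgeR's quasi-likelihood test (adjusted p under 0.05 over 15975 genes), where 43.5% of all genes tested did so, 26.2% as higher and 17.3% as lower. Ccl2, Ccl5, Ccl9, Ccl22 and Ccr2 were higher in the libraries labelled CD71+, and Ccl6 and Ccr1 were lower. Ccl3 and Ccl4, the most abundant of the ligands per length there, did not pass. In culture, 7 of 10 passed, all of them higher in the libraries labelled CD71+ (Ccl2, Ccl3, Ccl4, Ccl6, Ccl9, Ccl22 and Ccr2), where 16.2% of all genes passed 7.88% as higher and 8.36% as lower. The tumour and culture comparisons share no library. The same scaling and spread were used for both.

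Tumour and culture were then compared within each sort fraction. Between the CD71- groups, 7 of 10 genes passed, 6 higher and 1 lower in the tumour, with 67.1% of all genes passing, 30.3% as higher and 36.8% as lower. Between the CD71+ groups, 7 of 10 passed, 5 higher and 2 lower in the tumour, with 57.9% of all genes passing, 30.3% as higher and 27.6% as lower. Of the 10 genes, Ccl4, Ccl3 and Ccr1 had the largest rises among CD71- libraries.

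**Figure D1:**
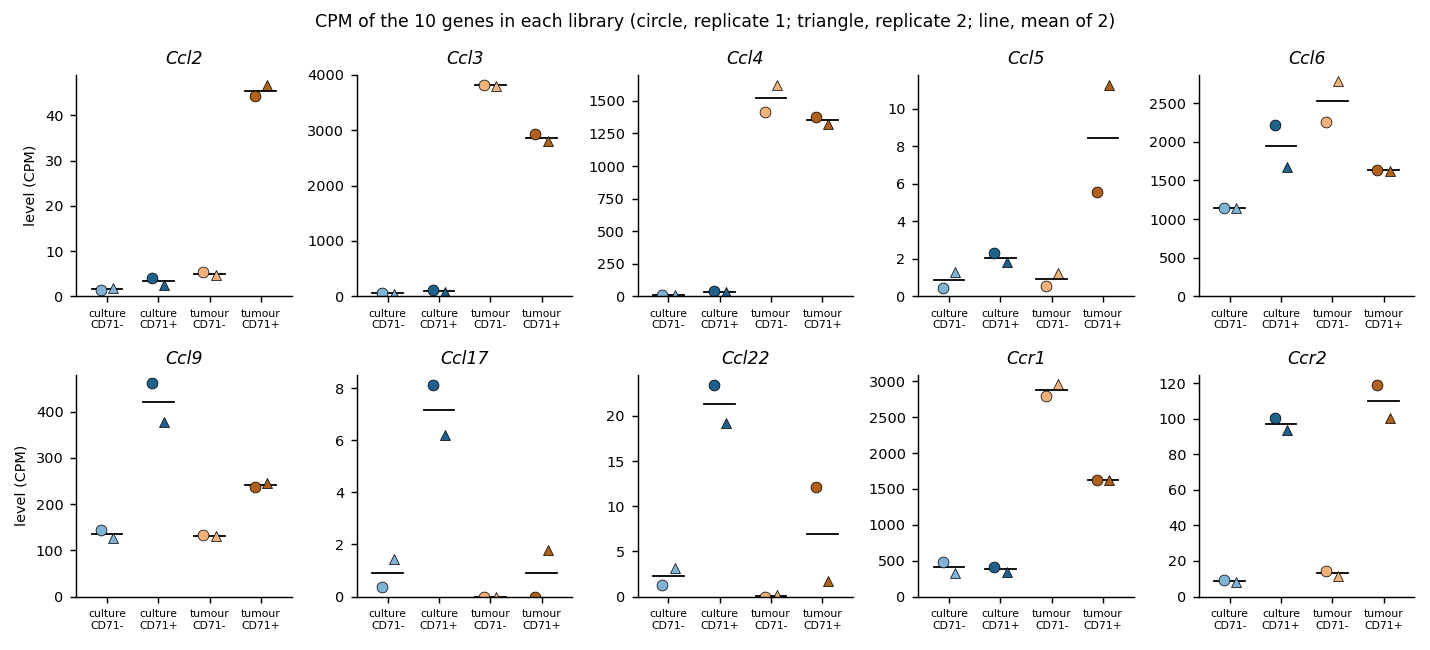
Level of each of the 10 genes in the 8 libraries, in CPM on linear axes that start at 0 and differ in range between genes; each point is 1 library, lines are group means and the groups follow the sort labels. Ccl3, Ccl4 and Ccr1 separate tumour from culture, and Ccr2 separates the libraries labelled CD71+ from those labelled CD71- in both.

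Ccl3 and Ccl4 encode MIP-1alpha and MIP-1beta, inflammatory attractants of monocytes, lymphocytes and neutrophils. Ccl3 read 64.0 and 47.9 CPM in culture CD71-, 104 and 77.7 in culture CD71+, 3817 and 3805 in tumour CD71-, and 2924 and 2811 in tumour CD71+. Every tumour library was far above every culture library, and the tumour CD71- libraries were the highest. The rise from culture to tumour was 6.09 on the log2 scale (SE 0.24, adjusted p = 1.51e-10) among CD71- libraries and 4.98 (SE 0.23, adjusted p = 6.8e-10) among CD71+ libraries. Within the tumour the fractions did not pass (log2 -0.41, SE 0.19, adjusted p = 0.101). Ccl3 was lower there in 5 of 16 alternatives, among them DESeq2 (log2 -0.63, adjusted p = 0.00524), and higher with mature neutrophil scaling (log2 0.68, adjusted p = 0.00393). Within culture Ccl3 was higher in the libraries labelled CD71+ (log2 0.70, SE 0.20, adjusted p = 0.0274). That call ended with the culture libraries alone (adjusted p = 0.0666), without CD71- replicate 2 (adjusted p = 0.0904) and without CD71+ replicate 1 (adjusted p = 0.324).

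Ccl4 followed the same order between origins from a lower start. It read 9.30 and 8.52 CPM in culture CD71-, 42.8 and 28.9 in culture CD71+, 1418 and 1622 in tumour CD71-, and 1379 and 1323 in tumour CD71+. The tumour groups were close to one another, while the culture groups stood apart. The log2 excess of tumour over culture was 7.41 (SE 0.26, adjusted p = 7.24e-11) among CD71- libraries and 5.23 (SE 0.23, adjusted p = 4.83e-10) among CD71+ libraries. Ccl4 was 4.01-fold higher in culture CD71+ than in culture CD71- (log2 2.0, SE 0.21, adjusted p = 5.06e-05), and it did not pass between the tumour fractions (log2 -0.17, SE 0.19, adjusted p = 0.493), except as higher with mature neutrophil scaling (log2 0.92, adjusted p = 0.000181). The difference of the sort effect between tumour and culture was -2.18 on the log2 scale for Ccl4 (SE 0.28, adjusted p = 0.000567) and -1.11 for Ccl3 (SE 0.28, adjusted p = 0.0164). Without culture CD71+ replicate 1 the difference for Ccl3 was -0.90 (adjusted p = 0.101), and without tumour CD71+ replicate 2 it was -1.11 (adjusted p = 0.0598).

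The ratio of Ccl3 to Ccl4 does not depend on how libraries are scaled. Per kilobase of exon it was 5.93 and 4.84 in culture CD71-, 2.09 and 2.32 in culture CD71+, 2.32 and 2.02 in tumour CD71-, and 1.83 and 1.83 in tumour CD71+. Only the culture CD71- libraries stood above the rest.

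Ccl5 encodes RANTES, an attractant of T cells, monocytes and eosinophils that is abundant in T and NK cells. It was scarce in all 4 groups, at 0.415 and 1.27 CPM in culture CD71-, 2.29 and 1.83 in culture CD71+, 0.558 and 1.25 in tumour CD71-, and 5.58 and 11.3 in tumour CD71+. The tumour CD71+ libraries were the highest and lay apart from each other. Ccl5 was higher in tumour CD71+ than in tumour CD71- (log2 3.21, SE 0.61, adjusted p = 0.00105) and than in culture CD71+ (log2 2.03, SE 0.48, adjusted p = 0.00266), the latter not with mature neutrophil scaling (log2 0.37, adjusted p = 0.502). It did not pass within culture (log2 1.37, SE 0.57, adjusted p = 0.120) or between the CD71- groups (log2 0.19, SE 0.72, adjusted p = 0.825). Summed T, NK and B lymphocyte markers (12 genes) were 5.13 to 5.45 CPM in tumour CD71- and 10 to 27 in tumour CD71+, higher in replicate 2, the library with more Ccl5. Of its 3 genes tested, 2 were higher in tumour CD71+ than in tumour CD71-, where 26.2% of all genes were. Of the 12, Klrb1c and Ncr1 were at 0 in both tumour CD71+ libraries. Cd3e, part of the T cell receptor complex, read 0.838 and 0.831 CPM in tumour CD71- and 2.69 and 5.74 in tumour CD71+. Cd3d did not rise, at 0.558 and 1.52 CPM in tumour CD71- and 0.481 and 0.659 in tumour CD71+. Cd3g, Cd8a and Nkg7 were above the tumour CD71- libraries only in tumour CD71+ replicate 2. The Ccl5 difference without tumour CD71+ replicate 2 was 2.60 on the log2 scale (adjusted p = 0.00827), and the part of lymphocyte RNA in it was not tested.

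Ccl6 and Ccl9 encode ligands of Ccr1 that myeloid cells of rodents make in steady state. Ccl6 read 1138 and 1139 CPM in culture CD71-, 2224 and 1675 in culture CD71+, 2258 and 2790 in tumour CD71-, and 1634 and 1629 in tumour CD71+. The sort fractions stood in opposite order in culture and tumour. Ccl6 was higher in culture CD71+ than in culture CD71- (log2 0.78, SE 0.19, adjusted p = 0.0121), but not with the culture libraries alone (adjusted p = 0.0636) or without culture CD71+ replicate 1 (adjusted p = 0.199). In the tumour, with TMM or DESeq2 scaling, it was lower in the libraries labelled CD71+ (log2 -0.63, SE 0.19, adjusted p = 0.0150). With scaling on total counts it was at -0.07 (adjusted p = 0.789) and on mature neutrophil genes at 0.47 (adjusted p = 0.0458). This call held in 11 of 16 alternatives. It also ended without tumour CD71- replicate 2 (log2 -0.58), tumour CD71+ replicate 1 (-0.63) or tumour CD71+ replicate 2 (-0.64). The difference of the sort effect was -1.41 on the log2 scale (SE 0.26, adjusted p = 0.00392) and passed in each of the 15 alternatives.

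Ccl9 differed from its neighbour in that both origins had it higher in the libraries labelled CD71+. It read 143 and 127 CPM in culture CD71-, 463 and 377 in culture CD71+, 133 and 130 in tumour CD71-, and 237 and 245 in tumour CD71+. The CD71- groups overlapped, and the CD71+ groups were both above them. The rise was 0.88 on the log2 scale in the tumour (SE 0.17, adjusted p = 0.00101) and 1.63 in culture (SE 0.17, adjusted p = 3.61e-05). Among CD71+ libraries the tumour was lower than culture (log2 -0.80, SE 0.16, adjusted p = 0.000853), and among CD71- libraries Ccl9 did not pass (log2 -0.04, SE 0.16, adjusted p = 0.837). Other scalings called Ccl9 lower in tumour CD71-: total counts (log2 -0.97, adjusted p = 0.000163) and mature neutrophil genes (log2 -1.80, adjusted p = 7.23e-10). The ratio of Ccl6 to Ccl9 per kilobase was 13.5 and 15.2 in culture CD71-, 8.15 and 7.54 in culture CD71+, 28.8 and 36.4 in tumour CD71-, and 11.7 and 11.3 in tumour CD71+. In each origin the ratio was thus lower in the libraries labelled CD71+. Of the 50-base stretches of Ccl9 transcripts, 59 of 2996 (1.97%) also occur in transcripts of other genes, so a small part of its reads could be split or lost.

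Ccl2 encodes MCP-1, the main attractant of Ccr2-bearing monocytes. It read 1.30 and 1.81 CPM in culture CD71-, 4.09 and 2.52 in culture CD71+, 5.31 and 4.71 in tumour CD71-, and 44.2 and 46.8 in tumour CD71+. The tumour CD71+ libraries stood alone at the top. Ccl2 was 9.07-fold higher in tumour CD71+ than in tumour CD71- (log2 3.18, SE 0.30, adjusted p = 5.74e-06), and this passed in each of 16 alternatives. In culture the rise was 1.11 on the log2 scale (SE 0.33, adjusted p = 0.0328), which passed in 10 of 16 alternatives. The effect of sorting was larger in the tumour by 2.07 (SE 0.45, adjusted p = 0.00841), and at 1.88 (adjusted p = 0.0594) without tumour CD71- replicate 2. Ccl2 was higher in tumour than in culture among CD71+ libraries (log2 3.78, SE 0.29, adjusted p = 8.98e-08). Among CD71- libraries it was also higher (log2 1.71, SE 0.35, adjusted p = 0.000697), but not with scaling on mature neutrophil genes (log2 -0.058, adjusted p = 0.903) or on total counts (log2 0.78, adjusted p = 0.0600).

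Ccl17 and Ccl22 encode the ligands of Ccr4 and are typical of activated dendritic cells. Ccl22 read 1.30 and 3.17 CPM in culture CD71-, 23.4 and 19.2 in culture CD71+, 0 and 0.139 in tumour CD71-, and 12.1 and 1.69 in tumour CD71+. The tumour CD71+ libraries were far apart, at 126 and 18 counts, and the tumour CD71- libraries held 1 count in all. From 144 and 1 counts, Ccl22 was 98.5-fold higher in tumour CD71+ than in tumour CD71-, with a 95% counting interval of 17.4 to 3917 that leaves out the spread between libraries. That comparison passed (adjusted p = 0.00974), but not without tumour CD71- replicate 1 (adjusted p = 0.0634) or replicate 2 (adjusted p = 0.0510). In culture Ccl22 was higher in the libraries labelled CD71+ (log2 3.30, SE 0.77, adjusted p = 0.0215), a call that ended on leaving out any 1 of the 4 culture libraries (adjusted p 0.0714 to 0.139). Ccl22 was 29.4-fold lower in tumour CD71- than in culture CD71- (interval 5.06 to 1180, adjusted p = 0.0421), and 7 of 17 alternatives ended this call. It did not pass between the CD71+ groups (log2 -1.63, SE 0.69, adjusted p = 0.0739).

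Ccl17 read 0.355 and 1.45 CPM in culture CD71-, 8.11 and 6.22 in culture CD71+, 0 in both tumour CD71- libraries, and 0 and 1.79 in tumour CD71+. All 19 of its counts in the tumour came from 1 library, and that was not the library richer in Ccl22. Ccl17 was lower in tumour CD71+ than in culture CD71+ (log2 -2.98, SE 0.94, adjusted p = 0.0246), at 19 against 446 counts, a ratio of 7.99 with a counting interval of 5.06 to 13.4. The call ended without culture CD71+ replicate 1 (adjusted p = 0.122) or replicate 2 (adjusted p = 0.0889), and with DESeq2 (adjusted p = 0.265). Within culture it did not pass (log2 3.08, SE 0.93, adjusted p = 0.0573). Set against 3 counts per library, the tumour CD71- level was at least 1.89-fold lower than the pooled level of culture CD71- (22 counts). The pooled tumour CD71+ counts were at least 2.17-fold above the same bound for tumour CD71-. Neither comparison passed (adjusted p 0.0921 and 0.116). Tumour CD71+ replicate 1 held 0 counts, as did both tumour CD71- libraries, so the 2.17 holds for the pooled counts only and rests on 1 library.

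Dendritic cell markers were in sum higher in the libraries labelled CD71+ in culture, as was Ccl22, but their sums overlapped between the tumour fractions. The 10 genes of that list summed to 46.8 to 48.0 CPM in culture CD71-, 286 to 301 in culture CD71+, 302 to 546 in tumour CD71- and 248 to 325 in tumour CD71+. Most of the tumour sum was Itgax, at 535 and 295 CPM in tumour CD71- and 281 and 208 in tumour CD71+. Cd209a and Xcr1 were at 0 in culture CD71-. Of 8 genes tested, 5 were higher and 1 lower in the tumour libraries labelled CD71+, where 26.2% and 17.3% of all genes were. In those of culture, 4 were higher and none lower, where 7.88% and 8.36% of all genes were. Fscn1, a marker of activated dendritic cells, read 29.1 and 17.5 CPM in the tumour CD71+ libraries against 6.98 and 3.33 in tumour CD71-. The part of dendritic cell RNA in the Ccl17 and Ccl22 values was not tested.

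**Figure D2:**
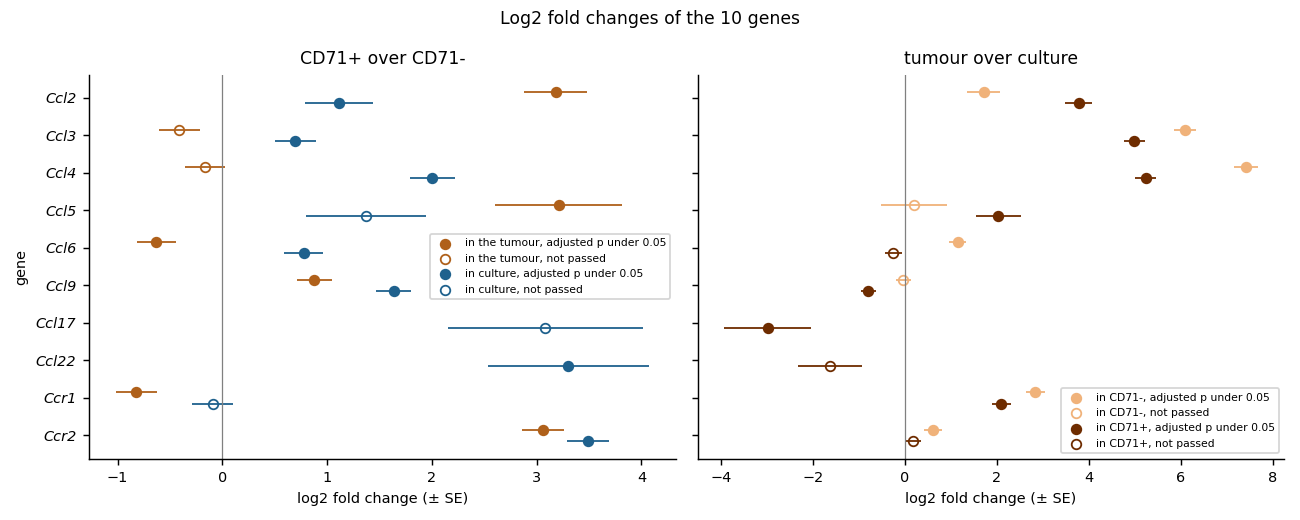
Log2 fold changes with standard errors for the 10 genes, CD71+ over CD71- on the left and tumour over culture on the right; filled points passed at an adjusted p under 0.05, and Ccl17 and Ccl22 are left out where tumour CD71- held 0 or 1 counts. Ccl3 and Ccl4 are 4.98 to 7.41 higher in the tumour, while the sort effects of Ccl6 and Ccr1 in the tumour, drawn below 0, turned positive with scaling on mature neutrophil genes.

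The receptors separated the groups along different lines. Ccr1, the receptor through which mouse neutrophils sense Ccl3, Ccl6 and Ccl9, read 481 and 330 CPM in culture CD71-, 411 and 349 in culture CD71+, 2801 and 2959 in tumour CD71-, and 1631 and 1623 in tumour CD71+. The culture groups overlapped, and every tumour library was above them. Ccr1 was 7.11-fold higher in the tumour among CD71- libraries (log2 2.83, SE 0.21, adjusted p = 4.06e-08) and 4.28-fold higher among CD71+ libraries (log2 2.10, SE 0.20, adjusted p = 8.74e-07), where scaling on mature neutrophil genes gave 0.41 (adjusted p = 0.0607). In the tumour it was lower in the libraries labelled CD71+ (log2 -0.82, SE 0.19, adjusted p = 0.00415), but total counts gave -0.26 (adjusted p = 0.320) and mature neutrophil scaling 0.27 (adjusted p = 0.260). In culture Ccr1 did not pass (log2 -0.09, SE 0.19, adjusted p = 0.793).

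Ccr2 read 9.18 and 7.98 CPM in culture CD71-, 100.3 and 93.3 in culture CD71+, 14.5 and 11.8 in tumour CD71-, and 119 and 100.2 in tumour CD71+. Both CD71+ groups lay far above both CD71- groups, and the CD71+ groups of tumour and culture overlapped. Ccr2 was 8.34-fold higher in the libraries labelled CD71+ in the tumour (log2 3.06, SE 0.20, adjusted p = 4.92e-07) and 11.2-fold higher in culture (log2 3.49, SE 0.20, adjusted p = 8.86e-07). Each call passed in all 16 alternatives. The 2 effects differed by -0.43 (SE 0.27), which did not pass (adjusted p = 0.30). Ccr2 was higher in tumour CD71- than in culture CD71- (log2 0.61, SE 0.20, adjusted p = 0.0171), but at -0.32 (adjusted p = 0.166) with total counts and -1.15 (adjusted p = 0.000102) with mature neutrophil scaling. Of the 6758 stretches of 50 bases in Ccr2 transcripts, 129 (1.91%) recur in transcripts of other genes, so a small part of its reads could also be split or lost.

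The ratio of Ccr1 to Ccr2 per kilobase was 125 and 98.6 in culture CD71-, 9.79 and 8.91 in culture CD71+, 460 and 599 in tumour CD71-, and 32.7 and 38.6 in tumour CD71+. It was lower in every library labelled CD71+ than in any library labelled CD71-, whichever the origin.

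**Figure D3:**
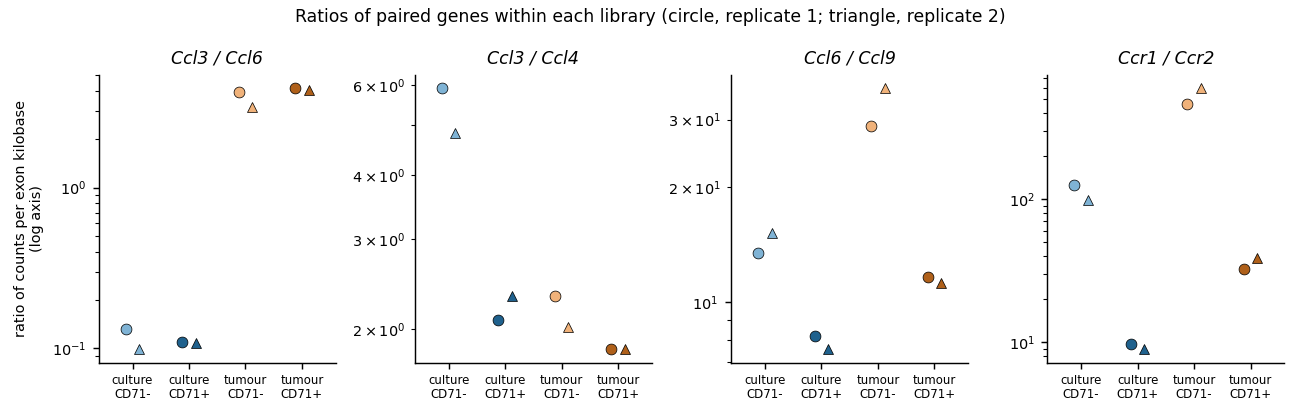
Ratios of exon-length-corrected levels within each library, on log axes, with 1 point per library. Ccr1 to Ccr2 falls from 460 and 599 in tumour CD71- to 32.7 and 38.6 in tumour CD71+, and Ccl3 to Ccl6 is above 3 in every tumour library and below 0.2 in every culture library.

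Monocyte and macrophage markers were in sum higher in the libraries labelled CD71+ of each origin, as were Ccr2 and Ccl2. Between the CD71+ groups their sum was far higher in the tumour, whereas Ccr2 overlapped. The 15 genes of that list summed to 775 to 836 CPM in culture CD71-, 1046 to 1237 in culture CD71+, 869 to 874 in tumour CD71- and 3855 to 4277 in tumour CD71+. Of its 14 genes tested, 12 were higher in the tumour libraries labelled CD71+ and 8 in the culture libraries labelled CD71+, with none lower in either, where 26.2% and 7.88% of all genes were higher. C1qa, a complement gene of macrophages, was at 0 in culture CD71-, at 0.732 and 0.380 CPM in culture CD71+, at 33.9 and 46.7 in tumour CD71-, and at 411 and 480 in tumour CD71+. Cd68 of the same list was lower in tumour CD71+, at 214 and 188 CPM against 277 and 241 in tumour CD71-, but higher in culture CD71+ than in culture CD71-. Ly6c2 overlapped between the sort fractions of each origin. It read 22.2 and 61.9 CPM in tumour CD71-, 42.7 and 66.9 in tumour CD71+, 102 and 114 in culture CD71-, and 122 and 100 in culture CD71+. The 9 microglia genes summed to 153 to 212 CPM in tumour CD71- and 918 to 1362 in tumour CD71+, against 77.4 to 78.0 in culture CD71- and 143 to 175 in culture CD71+, where Sall1 and Siglech were at 0. Of the 9 microglia genes tested, 8 were higher in the tumour libraries labelled CD71+ and 5 in those of culture. The part of monocyte, macrophage or microglia RNA in the chemokine and receptor values was not tested. The mature neutrophil list had 11 of 15 genes lower in the tumour libraries labelled CD71+ and 8 of 15 lower in those of culture, where 17.3% and 8.36% of all genes were lower.

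Eosinophil, basophil and mast cell markers summed to 67.6 to 105 CPM in culture CD71-, 50.2 to 56.5 in culture CD71+, 39.8 to 44.0 in tumour CD71- and 29.5 to 48.3 in tumour CD71+. In tumour CD71-, 7 of the 9 genes were at 0. Most of the sum there was Siglecf, at 43.8 and 39.6 CPM against 15.4 and 15.8 in culture CD71-. Of 5 genes tested, 4 were lower and 1 higher in tumour CD71- than in culture CD71-, where 36.8% and 30.3% of all genes were. Glioma and neural markers summed to 10.3 to 16.2 CPM in tumour CD71- and 38.0 to 75.3 in tumour CD71+, and to at most 0.355 in culture. Endothelial and stromal markers summed to 149 to 194 CPM in tumour CD71- and 176 to 246 in tumour CD71+, against 125 to 159 in culture. Their part in the chemokine values was not tested.

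Per kilobase of exon, the mix of the 8 ligands turned over between culture and tumour. Ccl6 made up 81.1% and 83.6% of the summed ligand level in culture CD71- and 76.3% and 76.1% in culture CD71+. In the tumour it made up 14.9% and 17.2% in CD71- and 13.1% and 13.5% in CD71+. Ccl3 took 8.23% to 10.7% in the culture libraries and 54.6% to 59.1% in the tumour libraries, and Ccl4 1.70% to 4.0% and 25.5% to 30.1%. Ccl9 took 5.50% to 10.1% in culture and 0.473% to 1.20% in the tumour. These are shares of a whole, so a rise of Ccl3 and Ccl4 lowers those of Ccl6 and Ccl9. Taken over both sort fractions, Ccl6 and Ccl9 overlapped in CPM between culture and tumour libraries. Within a sort fraction, only Ccl9 among CD71- libraries did so. With TMM scaling Ccl6 was 2.22-fold higher in tumour CD71- than in culture CD71-, but it was lower with mature neutrophil scaling (log2 -0.62). The ratio of Ccl3 to Ccl6 was 0.132 and 0.0985 in culture CD71-, 0.109 and 0.109 in culture CD71+, 3.96 and 3.2 in tumour CD71-, and 4.19 and 4.04 in tumour CD71+. Sort fractions differed little in this ratio beside the gap between origins.

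**Figure D4:**
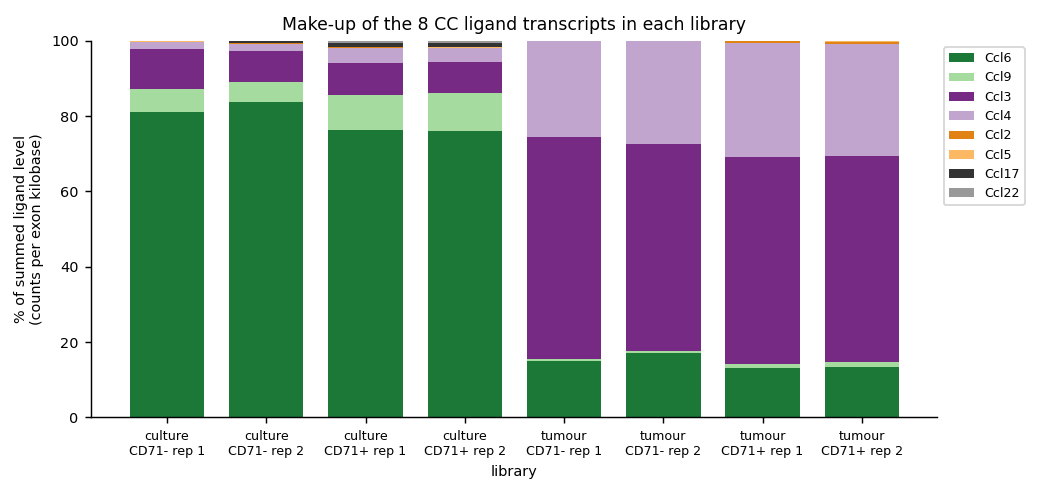
Share of each ligand in the summed per-kilobase level of the 8 ligands, in percent, with 1 bar per library. Ccl6 takes 76.1% to 83.6% of each culture bar, and Ccl3 with Ccl4 takes most of each tumour bar.

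Across the 10 genes, the median log2 difference between the libraries labelled CD71+ and CD71- was 1.97 in the tumour (1.0 with Ccl17 at its bound), against 0.13 for all genes tested. In culture it was 1.5, against 0.03. Between tumour and culture it was 0.88 among CD71- libraries, also with Ccl17 at its bound, against -0.28 for all genes, and 1.10 among CD71+ libraries, against -0.08. The comparisons of tumour with culture reuse the libraries of the comparisons between sort fractions, so they are not separate evidence.

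Other CC chemokine genes were mostly too scarce to test. Of 15 further ligand genes in the table, 4 were tested, and 3 were higher in tumour CD71+ than in tumour CD71- with none lower, where 26.2% of all genes were higher and 17.3% lower. Ccl7 and Ccl12 encode MCP-3 and MCP-5, relatives of Ccl2 that also bind Ccr2. Ccl7 read 2.51 and 0.554 CPM in tumour CD71- and 18.4 and 16.2 in tumour CD71+ (log2 3.49, SE 0.51, adjusted p = 0.000252). Ccl12 read 1.54 and 3.46 CPM in tumour CD71- and 16.9 and 29.3 in tumour CD71+ (log2 3.2, SE 0.46, adjusted p = 0.000287). Both were at 0 in culture CD71-, and in culture CD71+ Ccl7 had 3 and 2 counts and Ccl12 none. Ccl25, a thymic and gut ligand of Ccr9, was lower in the tumour than in culture among CD71- libraries (log2 -1.05, adjusted p = 0.00985) and CD71+ libraries (log2 -1.34, adjusted p = 0.00196).

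Of 13 further receptor genes, 6 were tested. Between sort fractions, 2 were higher in the tumour libraries labelled CD71+, where 26.2% of all genes were higher, and in culture 2 were higher and 1 was lower, where 7.88% and 8.36% of all genes were. Ccr7, the receptor that leads dendritic cells to lymph nodes, rose from a mean of 1.18 to 6.68 CPM in the tumour (adjusted p = 0.00237) and from 0.286 to 2.69 in culture (adjusted p = 0.00248). Ccr3, the eotaxin receptor, fell by 1.38 on the log2 scale in culture (adjusted p = 0.0213). The directions of Ccr7 and Ccr3 held with all 3 other scalings.

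Ccrl2, an atypical receptor that binds chemerin, was scarce in culture and abundant in the tumour. It read 15.5 and 10.9 CPM in culture CD71-, 15.3 and 11.8 in culture CD71+, 2297 and 2430 in tumour CD71-, and 1846 and 1671 in tumour CD71+. The tumour exceeded culture by 7.47 on the log2 scale among CD71- libraries (adjusted p = 7.24e-11) and by 7.02 among CD71+ libraries (adjusted p = 1e-10).

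Of 19 genes that carry the signal from chemokine receptors, 2 were higher and 4 lower in the tumour libraries labelled CD71+, and 2 were higher and 5 lower in those of culture. Over all genes tested, 26.2% were higher and 17.3% lower in the tumour, and 7.88% and 8.36% in culture. Rgs1 and Rgs16, which shorten G protein signalling, were the higher ones in both. Rgs1 rose from a mean of 192 to 337 CPM in the tumour (log2 0.81, adjusted p = 0.0136) and from 22.5 to 64.4 in culture (log2 1.51, adjusted p = 0.00117). Rgs16 rose from 4.67 to 26.1 CPM in the tumour (log2 2.48, adjusted p = 0.000190) and from 0.525 to 4.33 in culture (log2 3.07, adjusted p = 0.000604). Dock2, which activates Rac in migrating leukocytes, fell from 1127 to 671 CPM in the tumour (log2 -0.75, adjusted p = 0.00401) and from 498 to 328 in culture (log2 -0.60, adjusted p = 0.0316), but with mature neutrophil scaling it stood at 0.34 (adjusted p = 0.162) and 0.43 (adjusted p = 0.0726).

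For each of the 10 genes, the genes most alike over the 8 libraries were sought by Pearson's r of log2 CPM among 9761 genes with a mean of at least 5 CPM. These values describe 4 groups of 2 libraries with a shared scaling and carry no test. Ccl3 was most like Abca1 (r = 0.999), a cholesterol exporter, and Ccl4 was most like Gbp2 (0.999), an interferon-inducible GTPase, and Il1a (0.998). Ccr1 was most like Tiparp (0.999) and Tlr6 (0.999), and Ccl2 was most like Ldlrad4 (0.992). Ccr2 was most like Mthfd2 (0.989), Ccl5 like Scamp2 (0.985), Ccl22 like Tarbp1 (0.984), Ccl9 like Usp31 (0.979), Ccl17 like Reep4 (0.962) and Ccl6 like Degs1 (0.956).

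**Figure D5:**
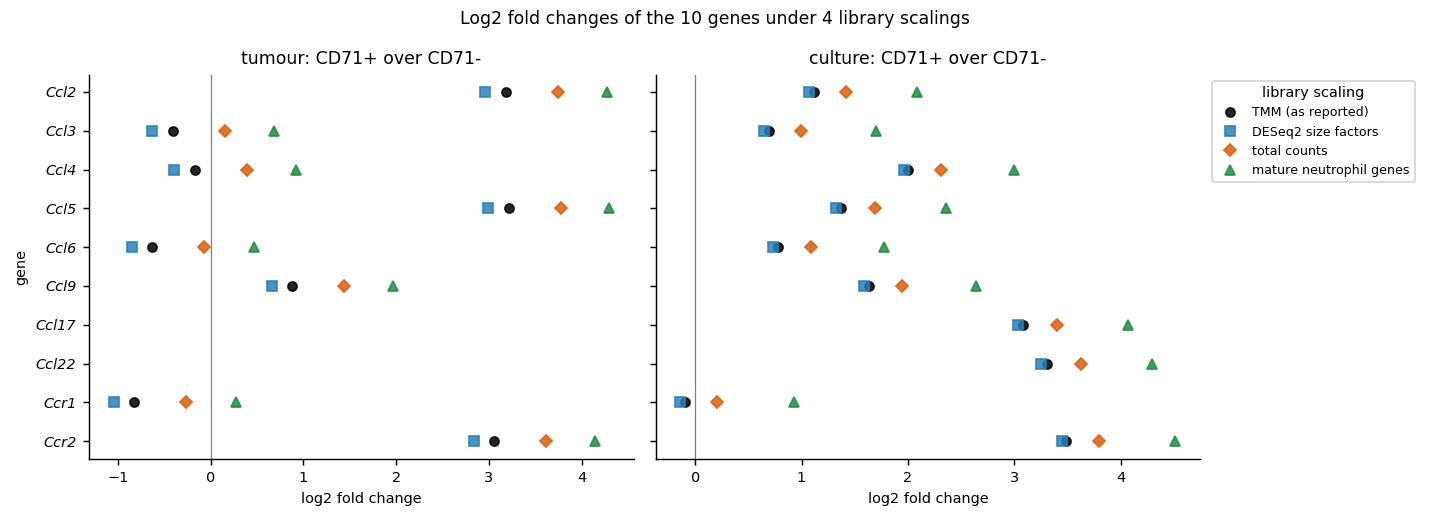
Log2 fold changes between sort fractions under 4 library scalings (TMM, DESeq2 size factors, total counts and mature neutrophil genes), tumour on the left and culture on the right; Ccl17 and Ccl22 are not drawn in the tumour. Ccl2, Ccl5, Ccl9 and Ccr2 stay above 0 in the tumour under all 4, whereas Ccl3, Ccl4, Ccl6 and Ccr1 lie below 0 with TMM and above 0 with mature neutrophil scaling.

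How the libraries are scaled shifts every gene together. Relative to TMM, the median log2 difference between tumour fractions moved by -0.22 with DESeq2 size factors, 0.56 with total counts and 1.09 with mature neutrophil genes. In culture it moved by -0.05, 0.31 and 1.02. Between tumour and culture it moved by 0.25, -0.93 and -1.76 among CD71- libraries and by 0.07, -0.67 and -1.69 among CD71+ libraries. Ccl3 and Ccl4 remained over 4 log2 units higher in the tumour among CD71- libraries under each scaling, at 4.33 and 5.65 at the lowest.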

How the data were processed

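The deposited table holds whole-number read counts per gene for 8 libraries, not normalized. Per the labels' protocols, total RNA (Zymo Quick-RNA Microprep) was made into libraries with Illumina Stranded Total RNA Prep and Ribo-Zero Plus. The tools named in the submitters' processing notes are STAR, featureCounts, cutadapt, FastQC and DESeq2, and the build is mm10. Not given in the sources used here are their versions, order and strand setting.

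Testing of the counts was with edgeR 4.0.16 (R 4.3.3): filterByExpr (15975 genes kept, all 10 members among them), TMM scaling, 4 group means over 8 libraries, robust quasi-likelihood test (4 residual degrees of freedom, biological coefficient of variation 0.19), Benjamini-Hochberg adjustment over all genes, called under 0.05. SE is the log2 fold change divided by the root of F. There were 5 comparisons. On data simulated for the tumour comparison with 15043 genes, 40% of 2-fold and 89% of 4-fold changes were recovered and 0.0673% of unchanged genes called. Per-kilobase levels used GENCODE M21 exon lengths. Intervals on count ratios are exact and 95%. Alternatives were other scalings, filters, DESeq2 1.42.0, the compared libraries alone, a replicate block and leaving out each library; a block with crossed replicate numbers was added after seeing the data.

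No replicate pair held identical values, and chi-square per degree of freedom was 14.5 to 77.4. The members, gene lists and tests were chosen with earlier results of these data known. Named genes were the members, Tfrc, pathway genes with a group mean of at least 5 CPM that passed somewhere, and up to 2 genes most alike to each member; some results under this rule are not reported here. Marker genes given singly were chosen after their values were seen.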

Additional observations from a re-analysis of the deposited data

Results flagged for a closer look

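The effect of the sort label differed between tumour and culture for 5 of the 10 genes by edgeR's test of the difference, where 15.5% of all genes passed, 10.8% with a larger and 4.71% with a smaller effect in the tumour. The difference, tumour minus culture on the log2 scale, was 2.07 for Ccl2 (adjusted p = 0.00841), -1.11 for Ccl3 (adjusted p = 0.0164), -2.18 for Ccl4 (adjusted p = 0.000567), -1.41 for Ccl6 (adjusted p = 0.00392) and -0.76 for Ccl9 (adjusted p = 0.0404). For Ccl2 the rise in the libraries labelled CD71+ was the larger one in the tumour, at 3.18 against 1.11. For Ccl9 both effects were rises, 0.88 in the tumour and 1.63 in culture. Ccl4 rose by 2.0 in culture and stood at -0.17 in the tumour, which did not pass. Ccl3 and Ccl6 rose in culture, by 0.70 and 0.78, and stood at -0.41 and -0.63 in the tumour. The differences of Ccl4 and Ccl6 passed in all 15 alternatives, that of Ccl2 in 14, that of Ccl3 in 13 and that of Ccl9 in 5. Ccl5 (1.84, adjusted p = 0.166), Ccr1 (-0.73, adjusted p = 0.0850) and Ccr2 (-0.43, adjusted p = 0.30) did not pass.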

How the results depend on the processing

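Of 792 values of single genes under the alternatives, 678 kept direction and side of the threshold, 52 lost the call, 34 gained one and 28 changed sign. Calls that held in all their alternatives included Ccl2, Ccl5, Ccl9 and Ccr2 between tumour fractions, Ccl4, Ccl9 and Ccr2 between culture fractions, and Ccl3 and Ccl4 between origins. The cause of the changes below was not tested, except that fewer libraries leave fewer residual degrees of freedom.

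With total counts, log2 values changed sign to 0.15 (Ccl3) and 0.39 (Ccl4) between tumour fractions, 0.21 (Ccr1) in culture, -0.71 (Ccl5) and -0.32 (Ccr2) between CD71- groups, and -0.50 (Ccr2) between CD71+ groups. With mature neutrophil scaling they became 0.68 (Ccl3), 0.92 (Ccl4), 0.47 (Ccl6) and 0.27 (Ccr1) between tumour fractions, 0.93 (Ccr1) in culture, -0.058 (Ccl2), -1.58 (Ccl5), -0.62 (Ccl6) and -1.15 (Ccr2) between CD71- groups, and -1.51 (Ccr2) between CD71+ groups. Ccl9 between CD71- groups became 0.21 with DESeq2 size factors and with DESeq2, 0.029 with the stricter filter and 0.16 with the compared libraries alone. It was called lower with total counts (-0.97) and with mature neutrophil scaling (-1.80). Leaving out 1 library gave -0.15 to 0.11 for it, -0.50 to 1.08 for Ccl5 there, -0.33 to 0.22 for Ccr1 in culture and -3.12 to 4.76 for the Ccl17 difference.

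The share of called genes that were higher went from 60.2% to 47.3%, 93.3% and 99.7% between tumour fractions (DESeq2 size factors, total counts, neutrophil scaling), from 48.5% to 80.9% and 98.3% in culture (the latter pair), from 69.6% to 52.1% and 87.4% for the difference (the former pair), from 45.1% to 52.1%, 25.3% and 14.6% between CD71- groups and from 52.3% to 55.5%, 29.3% and 14.7% between CD71+ groups (all 3). Mature neutrophil scaling called 10109 genes in culture against 2595.

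Leaving out 1 library, 3 to 8 of the 10 genes passed in culture (3 without CD71+ replicate 1) and 3 to 6 for the difference (3 without culture CD71+ replicate 1 or tumour CD71- replicate 2). All genes called ran from 826 to 2880 in culture, 966 to 3609 for the difference (2470 with all libraries) and 4495 to 7712 between tumour fractions (6951 with all).

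Over all tested genes, deviations between replicates correlated at 0.07, 0.01, -0.13 and -0.03 between the compared groups. Each group gives a single deviation per gene, so this cannot tell whether libraries of the same number were paired. With a replicate block, 7 of the 10 genes (6335 of 15975 genes in all) passed between tumour fractions, 5 (2135) in culture, 4 (1997) for the difference, 6 (10307) between CD71- groups and 7 (8717) between CD71+ groups. Crossed numbers between CD71- groups gave 7 of 10 and 10916 genes. Depth limits Ccl17, Ccl22 and Ccl5.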
